A study of Mus musculus with 6 samples.

Results

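The 36 genes described here encode glucose transporters, the enzymes of glycolysis, the steps that take pyruvate into the mitochondrion and oxidise it, and the main enzymes of glycogen. The rule lists them by name as a pathway and uses no measured value, though earlier results of these data were known when it was written, and all 36 were found among the 19320 genes of the table. The study compared RNA from mouse hearts at 2 weeks, with 2 samples in each of 3 groups. The first was labelled Snai1 knockdown and had transverse aortic constriction (TAC), in which the aorta is narrowed so that the left ventricle pumps against a higher pressure. The second was WT with TAC, and the third was WT with sham surgery and no added load. Snai1 encodes Snail, a transcriptional repressor that binds E-box motifs. The series names the knockdown shSnai1. How it was delivered and to which cells, and the strain, sex and age of the mice, are not stated in the labels. The protocol for RNA extraction covers both heart tissue and cultured cells, while every sample is labelled heart.

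Glucose enters heart muscle through the transporters GLUT4 (Slc2a4), which insulin and contraction bring to the surface, and GLUT1 (Slc2a1), which is always there. Glycolysis turns it into pyruvate, which is either reduced to lactate or carried into mitochondria and oxidised by pyruvate dehydrogenase, an enzyme that its kinases switch off and its phosphatases switch on. The adult heart draws most of its energy from fatty acids, and a greater use of glucose with return of fetal isoenzymes is a known feature of the heart under pressure load.

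Expression is given as CPM, counts per 1000000 reads of a library. The 2 deposited columns of a group behaved as mixtures of the same 2 libraries, and the values here are those of the libraries after the mixtures were resolved, which gave whole counts for 99.9% of 115920 values (within 0.05 of a whole number). The resolved libraries had totals of 15254681 and 18247813 with knockdown, of 18094371 and 17221291 in TAC and of 14835973 and 17411285 in sham. The labels do not tell whether samples of a group are separate mice, so the spread behind each p-value may be technical. Snai1 itself had 3.41 and 2.74 CPM with knockdown, 4.48 and 4.24 CPM in TAC and 5.12 and 3.45 CPM in sham, and its knockdown difference from TAC did not pass the test (log2 -0.51 ± 0.33 SE, limma adjusted p = 0.999). Cardiomyocyte markers were abundant in each library, 9 of them summing to between 96800 and 110200 CPM, and 8 markers of skeletal muscle, whose isoenzymes the heart partly shares, summed to between 3.802 and 6.16 CPM. In bulk RNA, fewer cells of a type and less RNA per cell cannot be told apart.

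No gene of the 36 passed the test in any comparison, by limma or by limma-voom. The changes were small: in each comparison at least 33 of the 35 tested genes had a 95% interval inside a 2-fold change, and those outside it were Slc16a3 and Pdk3, both of few reads. Between TAC and sham, 16 members were higher and 4 lower (Gpi1, Mpc1, Pgam2 and Pdk2) without overlap of the libraries, against 23.8% and 16.3% of all genes. Those with an unadjusted p below 0.05 were the transporter Slc2a1, the hexokinase Hk1, the non-muscle phosphofructokinases Pfkp and Pfkl, the lactate dehydrogenase Ldha and the glycogen synthase Gys1, all higher in TAC, and the pyruvate dehydrogenase kinase Pdk2, lower. Of the 24 fold changes given below (the 8 members of smallest p in each of 3 comparisons), 15 shrank by over 1.5 times or turned sign when 1 library was left out. The heart muscle enzymes Pfkm, Pkm and Ldhb overlapped between all groups. Between knockdown and TAC, Slc2a1 was the single member of 35 with an unadjusted p below 0.05, against 2.08% of all genes. The plot of values by library shows these patterns.

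**Figure D1:**
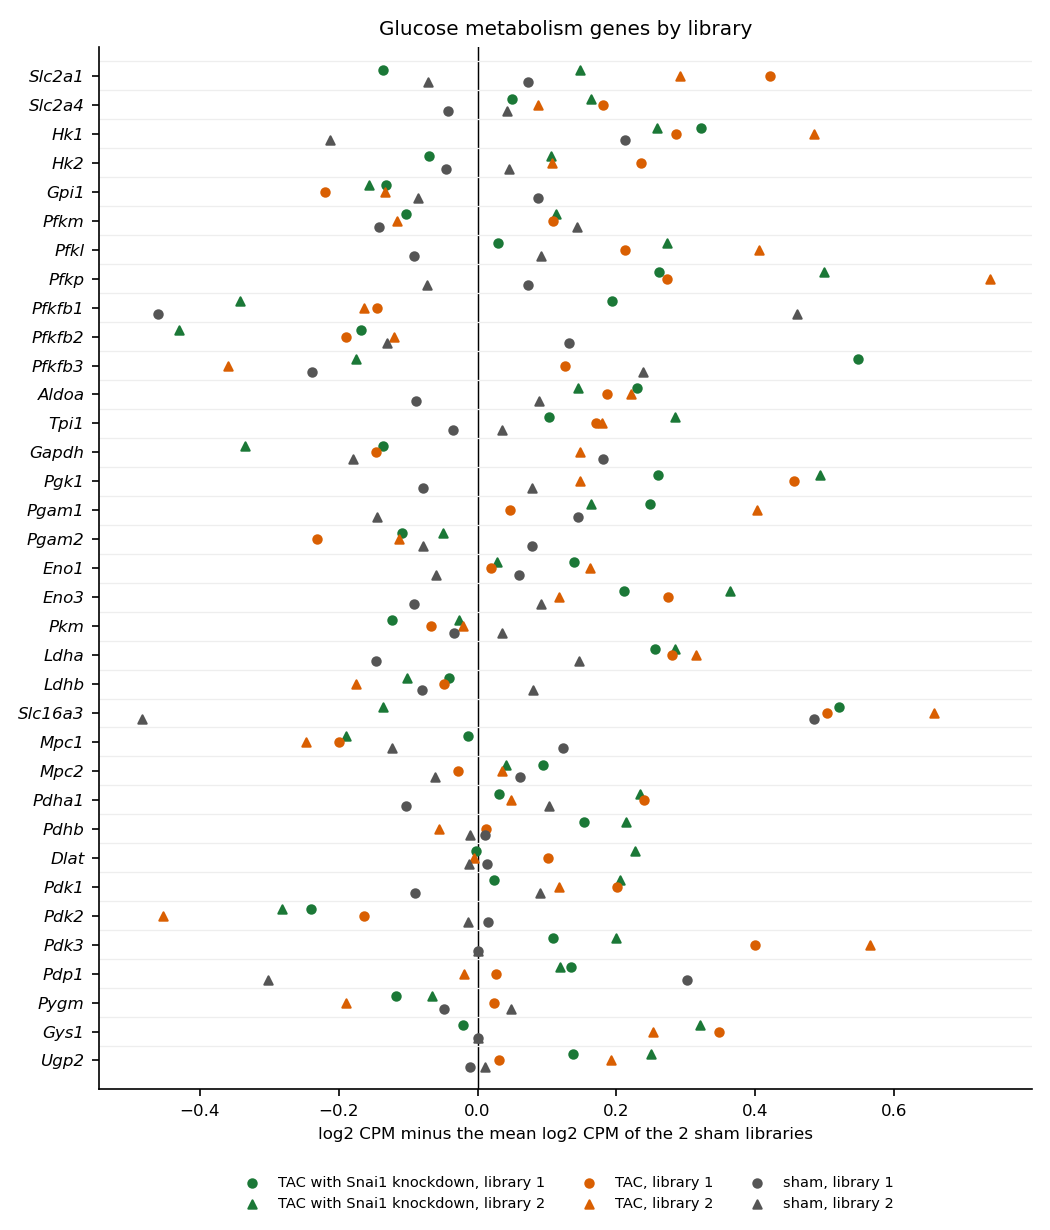
Level of each tested gene in each library, as log2 CPM minus the mean log2 CPM of the 2 sham libraries (x axis), with 1 row per gene; circles are library 1 and triangles library 2 of a group. Pfkp lies higher in both TAC libraries than in both sham libraries and Pdk2 lower, while Pfkm and Pkm overlap.

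Promoter windows from RefSeq (GRCm38.p6, from 250 bases before to 50 bases after a start) were found for 34 of the 36 genes, those not found being Slc2a4 and Pdp1. Glycolytic genes are known targets of the hypoxia-inducible factors, which bind the core ACGTG, and this core was searched on both strands, so that a palindromic CACGTG holds it once on each. It was present in 19 of the 34 genes (55.9%), against 21.8% of 27025 genes, and in 41.8% of the 55 member windows against 19.6% of 32851 windows. The palindrome CACGTG was present in 5 members (14.7%), against 8.09% of genes. The Snail E-box CAGGTG was present in 7 (20.6%: Hk1, Ldha, Mpc1, Mpc2, Pfkfb2, Pfkm and Pgam2), against 22.6% of genes. Without overlap between TAC and sham, 23.8% of all tested genes were higher and 16.3% lower, as were 16 and 4 of the 35 tested members. Of the 19 with the core, 10 did not overlap between TAC and sham (Aldoa, Hk1, Hk2, Ldha, Pdk2, Pdk3, Pgk1, Slc16a3, Slc2a1 and Ugp2). Windows of 3 of these, picked after the values were seen as a transporter, a lactate and a pyruvate enzyme, are shown: that of Slc2a1 at chr4:119108495-119108794 (plus strand), that of Ldha at chr7:46845554-46845853 (plus strand) and that of Pdk2 at chr11:95041322-95041621 (minus strand), with capitals marking the core.
Slc2a1: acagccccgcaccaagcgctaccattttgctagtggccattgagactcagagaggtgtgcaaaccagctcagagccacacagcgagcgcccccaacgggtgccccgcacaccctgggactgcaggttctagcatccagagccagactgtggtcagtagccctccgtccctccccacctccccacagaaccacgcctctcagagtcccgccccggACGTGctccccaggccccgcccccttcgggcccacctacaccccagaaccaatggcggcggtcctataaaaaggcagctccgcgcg
Ldha: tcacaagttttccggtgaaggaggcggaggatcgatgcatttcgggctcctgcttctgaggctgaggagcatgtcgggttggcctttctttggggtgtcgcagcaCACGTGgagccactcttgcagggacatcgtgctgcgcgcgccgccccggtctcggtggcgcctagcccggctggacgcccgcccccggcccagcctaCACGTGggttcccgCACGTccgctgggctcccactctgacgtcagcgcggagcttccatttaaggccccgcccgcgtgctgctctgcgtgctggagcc
Pdk2: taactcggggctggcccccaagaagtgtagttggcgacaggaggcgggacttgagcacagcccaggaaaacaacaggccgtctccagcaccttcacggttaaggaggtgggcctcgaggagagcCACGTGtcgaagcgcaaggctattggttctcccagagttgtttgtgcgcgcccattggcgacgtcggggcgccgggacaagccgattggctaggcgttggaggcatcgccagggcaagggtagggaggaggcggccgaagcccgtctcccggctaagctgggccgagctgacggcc
Ldha holds the palindrome at 2 places and the core once more, Pdk2 holds 1 palindrome and Slc2a1 a single core. Eno3, Gpi1, Gys1, Mpc1, Pdk1, Pfkl, Pfkp, Pgam2 and Tpi1 also did not overlap between TAC and sham, and have no core in their windows. The other members with the core (Aldoc, Gapdh, Pdhb, Pfkfb2, Pfkfb3, Pfkm, Pgam1, Pkm and Pygm) overlapped between these groups. So did Dlat, Eno1, Ldhb, Mpc2, Pdha1 and Pfkfb1, which have a window and no core. Slc2a4 did not overlap between TAC and sham and had no window. A link between the core and the TAC values was not tested. A match is a run of letters and no evidence of binding.

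Levels of different genes can be compared only per length, here as CPM per kb of exon length (GENCODE M21). Values are averaged over the 6 libraries, with each row counted alone. The length joins all annotated exons of a gene, from 0.84 kb for Pgam2 to 13.4 kb for Pfkp, whether or not the heart uses them. Levels of Pgk1, Pgam1, Eno1 and other rows that share sequence with other genes, described below, are uncertain. Apart from Gapdh, whose near copies are described below, the muscle and heart isoenzymes led: Ldhb, the lactate dehydrogenase of heart, was at 1021 CPM per kb, the aldolase Aldoa at 944, the muscle phosphoglycerate mutase Pgam2 at 819.8, the muscle enolase Eno3 at 637, the muscle glycogen phosphorylase Pygm at 578 and the muscle phosphofructokinase Pfkm at 351. The pyruvate dehydrogenase kinase Pdk2 followed at 292, pyruvate kinase (Pkm) at 272, the pyruvate dehydrogenase subunit Pdha1 at 262 and triose phosphate isomerase (Tpi1) at 261. Slc2a4 stood at 156.8 CPM per kb and Slc2a1 at 8.41. At the low end were Pfkfb3 at 2.27, Pdk3 at 1.42, the lactate exporter Slc16a3 at 0.62 and Aldoc, the brain aldolase, at 0.072 CPM per kb. Aldoc had at most 0.438 CPM, was listed at 0 in 1 sham library and was not tested. Neighbours in this order, such as Pkm, Pdha1 and Tpi1, overlapped across libraries.

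**Figure D2:**
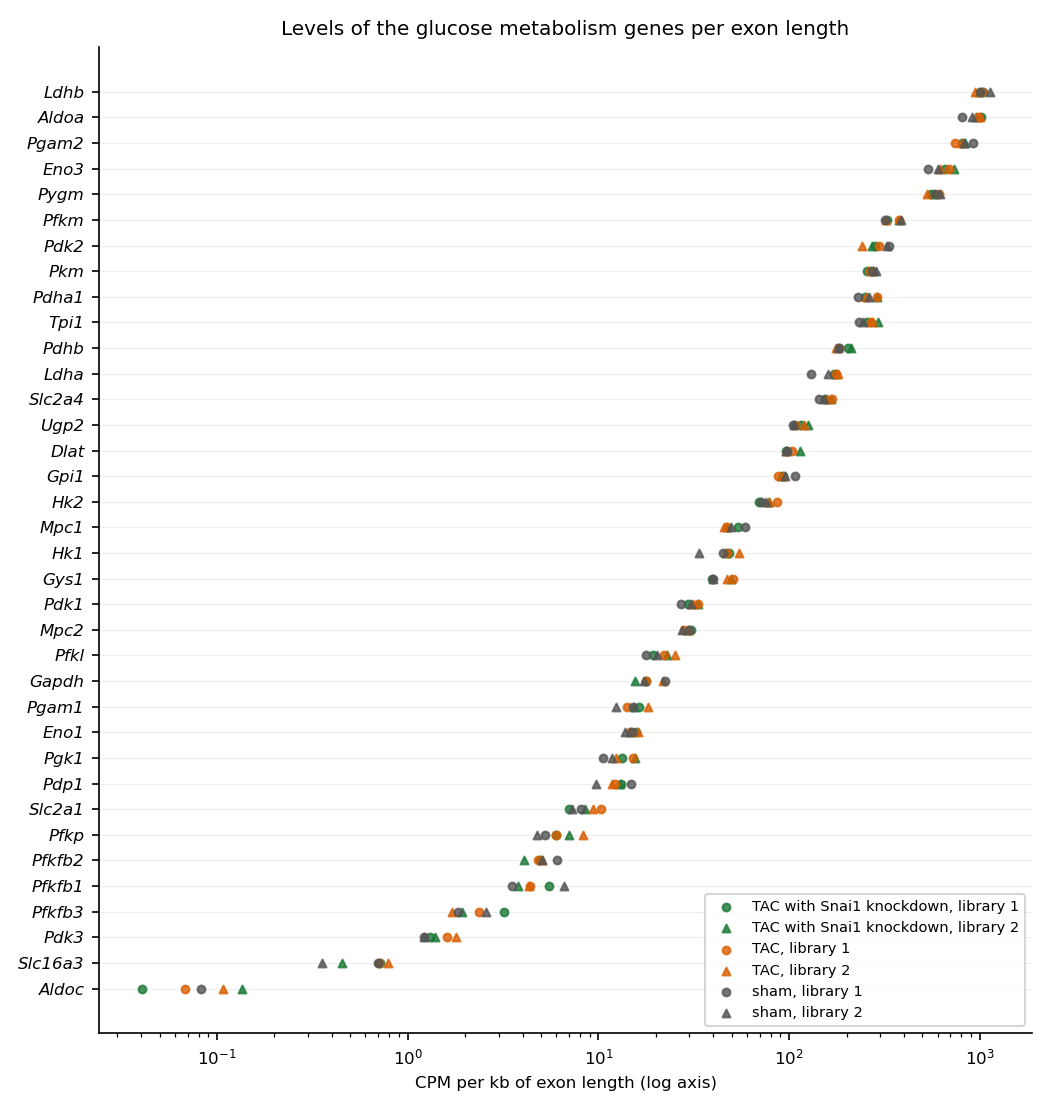
CPM per kb of exon length (log axis) of the 36 genes, ordered by their mean, with 1 point per library; the value of 0 for Aldoc in sham library 2 is not drawn. With the Gapdh row counted without its near copies, isoenzymes typical of muscle and heart stand at the top, from Ldhb at 1021 CPM per kb, and Aldoc at the bottom.

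The Gapdh row needs a separate account. Gapdh (glyceraldehyde phosphate dehydrogenase, chr6:125161715-125166467, minus strand, GRCm38), known as one of the most abundant glycolytic transcripts, had between 64.2 and 91.8 CPM and ranked 24 of 36 per kb. The table also held 75 rows whose transcripts share at least 10% of their 50-base words with Gapdh, mostly processed pseudogenes, led by Gm7336 with a mean of 747 CPM, Gm2606 with 719, Gm2451 with 589 and Gm12033 with 493. Gapdh and these rows together held 5368 and 5397 CPM with knockdown, 5128 and 5713 CPM in TAC, and 4758 and 4719 CPM in sham, and the Gapdh row itself was between 1.19 and 1.93% of that sum. The labels do not say how multi-mapped reads were counted, so that reads of Gapdh and of its copies cannot be told apart. If all of these reads were counted to Gapdh, it would stand at between 1142 and 1382 CPM per kb of its exon length, above Ldhb in each library. The sign depends on the choice: knockdown minus sham was -0.24 ± 0.15 on the log2 scale in the Gapdh row (limma adjusted p = 0.691) and 0.18 ± 0.13 in the sum (adjusted p = 0.746), and TAC minus sham was 0.00051 ± 0.15 (adjusted p = 0.999) in the row and 0.19 ± 0.13 (adjusted p = 0.695) in the sum. This sum was formed after the data were seen.

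**Figure D3:**
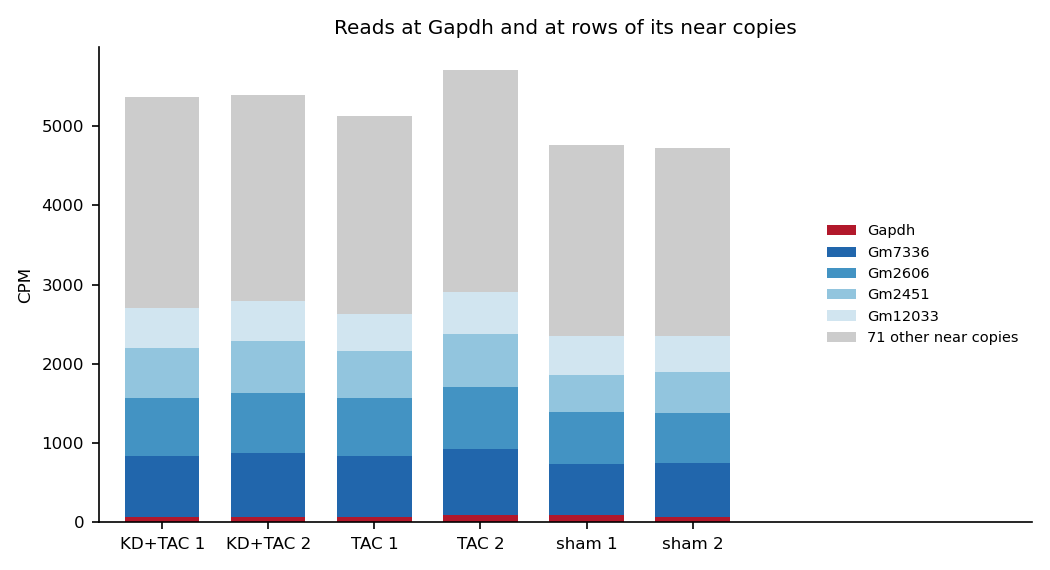
CPM (y axis) at the Gapdh row and at rows of its 75 near copies, stacked, in each library. The Gapdh row is the thin band at the foot of each bar, with between 64.2 and 91.8 CPM of a stack that reaches between 4719 and 5713 CPM.

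Other members share sequence to a lesser extent. Of the 36 genes, 7 had over 20% of their 50-base words also in other annotated genes: Pgk1 (53.9%), Pgam1 (36.2%), Mpc1 (26.3%), Eno1 (26.0%), Pkm (25.8%), Gapdh (25.1%) and Ldhb (20.99%). These, with Pdhb, are uncertain where reads were split among copies. Besides Gapdh, Eno1 and Pdhb each had a copy with its own row, Eno1b and Gm6123. The Eno1 row was between 65.5 and 71.1% of its sum with Eno1b. The Pdhb row was between 85.1 and 86.6% of its sum with Gm6123. Exons of 14 members overlapped an exon on the opposite strand. These were Slc2a1, Hk1, Gpi1, Pfkm, Pfkp, Pfkfb1, Pfkfb2, Aldoa, Tpi1, Gapdh, Mpc1, Pdha1, Gys1 and Ugp2. The overlap held 748 of 13401 exon bases in Pfkp, 310 of 4789 in Gys1, 157 of 8532 in Hk1 and 105 of 3506 in Slc2a1. No strand setting is given, so reads of those overlaps cannot be told apart either.

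Under TAC against sham, 0 of the 35 tested members were called, where 0.0831% of 14447 genes were called higher and 0.0761% lower (limma, Benjamini-Hochberg adjusted p below 0.05). An unadjusted p below 0.05 was found for 7 members, 6 higher and 1 lower, against 9.57% of all genes. The libraries of the groups did not overlap for 16 members higher in TAC and 4 lower, against a background of 23.8% higher and 16.3% lower among all genes. The median log2 fold change was 0.11 over the members and 0.037 over all genes, with members between -0.31 and 0.57. The median standard error was 0.12 for members and 0.19 for all genes. Under knockdown against TAC, 0 members were called, as were 0% of genes higher and 0% lower, and 1 of 35 members (Slc2a1, lower) had an unadjusted p below 0.05, against 300 genes or 2.08%, a share near the background. The groups did not overlap for 5 members higher and 3 lower, against 16% and 12.4% of genes. The members' median was -0.0081, against 0.019 for all genes. Under knockdown against sham, 0 members were called, against 0.138% of genes higher and 0.104% lower. An unadjusted p below 0.05 was found for 6 members, 5 higher and 1 lower, against 8.8% of genes. The groups did not overlap for 12 members higher and 4 lower, against 25.5% and 13.9% of genes, with a median of 0.11 against 0.054. The comparisons share libraries and are not independent of each other.

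**Figure D4:**
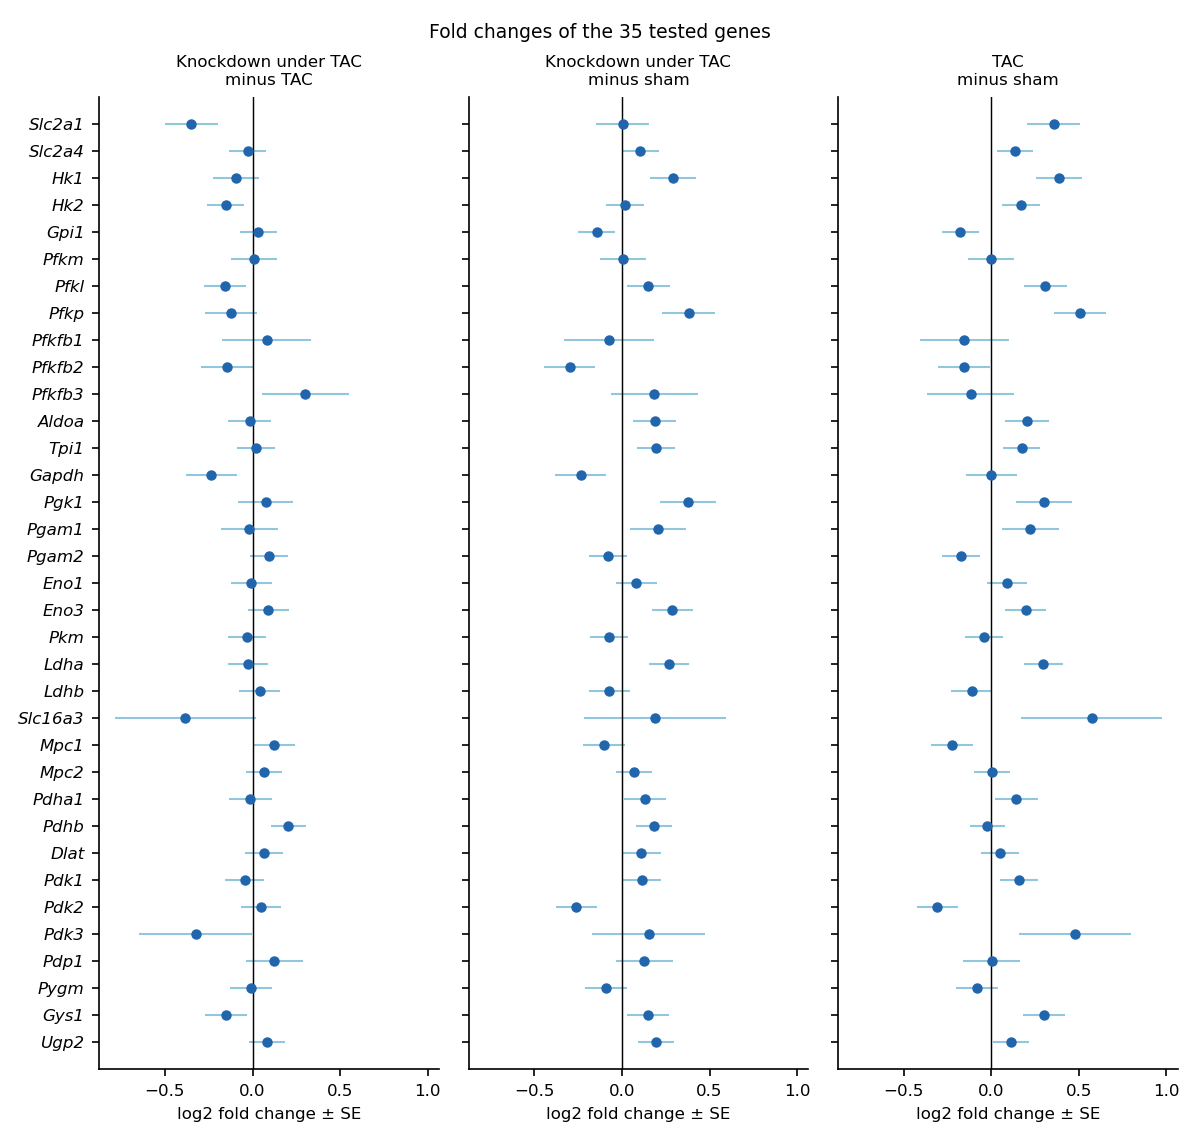
Log2 fold change (x axis, bars are the standard error of the limma fit, n = 2 libraries per group) of the 35 tested genes in the 3 comparisons. The values lie between -0.38 and 0.57, and the widest bars belong to Slc16a3 and Pdk3.

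Among the glucose transporters, Slc2a1 had 24.5 and 29.8 CPM with knockdown, 35.98 and 32.9 CPM in TAC and 28.2 and 25.6 CPM in sham. Both TAC libraries were higher than the 4 others, and the knockdown and sham libraries overlapped. Knockdown minus TAC was -0.35 ± 0.15 (SE) on the log2 scale (limma adjusted p = 0.999), and TAC minus sham was 0.36 ± 0.15 (adjusted p = 0.469). Without knockdown replicate 1 the first was -0.21. Slc2a4 had 533 and 577 CPM with knockdown, 584 and 547 CPM in TAC and 500.3 and 531 CPM in sham. Both loaded groups were higher than sham by a small margin and overlapped each other. The ratio of Slc2a4 to Slc2a1 reads was 21.8 and 19.4 with knockdown, against 16.2 and 16.6 in TAC and 17.7 and 20.7 in sham, so that both TAC libraries had the lowest ratios.

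Hexokinases trap glucose in the cell as its phosphate. Hk1, the form of most tissues and of the fetal heart, had 415 and 397 CPM with knockdown, 405 and 464 CPM in TAC and 385 and 286 CPM in sham. Both loaded groups were higher than both sham libraries, which were themselves far apart. Hk1 differed by 0.39 ± 0.13 on the log2 scale between TAC and sham (limma adjusted p = 0.338) and by 0.29 ± 0.13 between knockdown and sham (adjusted p = 0.559), and by 0.17 and 0.078 without sham replicate 2. Hk2, the insulin-regulated form of adult muscle, had 416 and 469.7 CPM with knockdown, 514 and 470.2 CPM in TAC and 423 and 450.5 CPM in sham. Knockdown minus TAC was -0.15 ± 0.11 for Hk2 (limma adjusted p = 0.999), with 469.7 in one library beside 470.2 in the other group. Gpi1, phosphoglucose isomerase, had 596 and 586 CPM with knockdown, 561 and 596 CPM in TAC and 694 and 615 CPM in sham, and was lower in each loaded library than in sham.

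Phosphofructokinase catalyses the committed step of glycolysis. Pfkm, its muscle form and the main one here, had 1086 and 1262 CPM with knockdown, 1258 and 1077 CPM in TAC and 1057 and 1288 CPM in sham, with full overlap. Pfkp, the platelet-type form, had 80.0 and 94.4 CPM with knockdown, 80.6 and 111 CPM in TAC and 70.2 and 63.5 CPM in sham. All 4 loaded libraries were above both sham libraries. Pfkp had the smallest p-value of the members between TAC and sham, at log2 0.50 ± 0.15 (limma adjusted p = 0.241), and stood at 0.38 ± 0.15 between knockdown and sham (limma adjusted p = 0.483). Without TAC replicate 2, its TAC difference was 0.27 and without TAC replicate 1 it was 0.74. Macrophage markers, 9 in the table, were also higher in the loaded libraries than in sham. They summed to 733 and 517 CPM with knockdown, 470.2 and 577 CPM in TAC and 389 and 347 CPM in sham. Of the 9, 8 were higher in both libraries of TAC than of sham, against 23.8% of all tested genes. Between the 2 libraries of a group, this sum and Pfkp differed in the same direction in TAC and in sham. With knockdown they differed in opposite directions. Platelet markers, 4 in the table, summed to 12.8 and 10.1 CPM with knockdown, 10 and 8.54 CPM in TAC, and 30.9 and 47.3 CPM in sham. Endothelial markers, 6 in the table, summed to 1391 and 1198 CPM with knockdown, 1087 and 1393 CPM in TAC and 1161 and 1047 CPM in sham. The part of these cells in the Pfkp difference was not tested.

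Pfkl, the liver-type form, had 129.6 and 153 CPM with knockdown, 147 and 168 CPM in TAC and 119 and 135 CPM in sham. Both TAC libraries were above sham, and knockdown overlapped both groups. Its log2 fold change was 0.31 ± 0.12 between TAC and sham (limma adjusted p = 0.417) and -0.16 ± 0.12 between knockdown and TAC (adjusted p = 0.999), the second being -0.036 without knockdown replicate 1. The 3 bifunctional enzymes that make or break down the allosteric activator of phosphofructokinase were low. Pfkfb2, the cardiac form, had 35.6 and 29.7 CPM with knockdown, 35.1 and 36.8 CPM in TAC and 43.8 and 36.5 CPM in sham, and knockdown minus sham was -0.30 ± 0.15 (limma adjusted p = 0.596) and -0.17 without sham replicate 1. Pfkfb3, an inducible form, had 24.1 and 14.6 CPM with knockdown, 18.0 and 12.8 CPM in TAC and 13.95 and 19.4 CPM in sham. Its knockdown minus TAC value of 0.30 ± 0.25 (limma adjusted p = 0.999) rested on the first knockdown library and was -0.059 without it. Pfkfb1 had 22.2 and 15.3 CPM with knockdown, 17.5 and 17.3 CPM in TAC and 14.1 and 26.7 CPM in sham, with the widest spread in sham.

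The enzymes from aldolase to pyruvate kinase split and oxidise the sugar phosphates and make ATP. Aldoa had 2936 and 2769 CPM with knockdown, 2851 and 2919 CPM in TAC and 2355 and 2664 CPM in sham. Tpi1 had 708 and 803 CPM with knockdown, 741 and 746 CPM in TAC and 643 and 675 CPM in sham. All 4 loaded libraries were above sham for Aldoa and for Tpi1, without a call. Eno3 had 1140 and 1267 CPM with knockdown, 1192 and 1069 CPM in TAC and 924 and 1050 CPM in sham. It too was above sham in each loaded library, at 0.29 ± 0.12 between knockdown and sham (limma adjusted p = 0.503). Pgk1, phosphoglycerate kinase, had 29.8 and 35.1 CPM with knockdown, 34.2 and 27.6 CPM in TAC and 23.6 and 26.3 CPM in sham. Pgk1 differed by 0.30 ± 0.16 between TAC and sham (limma adjusted p = 0.577, and 0.15 without TAC replicate 1) and by 0.38 ± 0.16 between knockdown and sham (adjusted p = 0.522), on a row where 53.9% of the 50-base words are shared with other genes.

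Pgam2, the muscle mutase, ran the other way, with 675 and 704 CPM with knockdown, 620.3 and 673 CPM in TAC and 769 and 689.8 CPM in sham. Both TAC libraries were below sham. Pgam1, the form of other tissues, had 32.4 and 30.5 CPM with knockdown, 28.1 and 36 CPM in TAC and 30.1 and 24.6 CPM in sham. Eno1, the enolase of most tissues, had 85.2 and 78.9 CPM with knockdown, 78.4 and 86.5 CPM in TAC and 80.6 and 74.2 CPM in sham. Pkm had 1283 and 1373 CPM with knockdown, 1335 and 1378 CPM in TAC and 1365 and 1432 CPM in sham. TAC and sham overlapped for Pgam1, Eno1 and Pkm. For Gapdh, whose row is described above, knockdown minus TAC was -0.24 ± 0.15 (limma adjusted p = 0.999) in the row and -0.0082 ± 0.13 (adjusted p = 0.999) with the near copies summed.

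Lactate dehydrogenase joins pyruvate and lactate, the form made by Ldha being known for lactate production and that of Ldhb for the heart. Ldha had 571 and 583 CPM with knockdown, 581 and 595 CPM in TAC and 432 and 529.5 CPM in sham. All 4 loaded libraries were above both sham libraries. Its log2 fold change was 0.30 ± 0.11 between TAC and sham (limma adjusted p = 0.395) and 0.27 ± 0.11 between knockdown and sham (adjusted p = 0.519). Without sham replicate 1 these were 0.15 and 0.12. Ldhb had 1623 and 1557 CPM with knockdown, 1615 and 1479 CPM in TAC and 1580 and 1766 CPM in sham, with overlap. The ratio of Ldha to Ldhb reads was 0.352 and 0.374 with knockdown, against 0.360 and 0.402 in TAC and 0.274 and 0.300 in sham, so that each loaded library was above both sham libraries. Slc16a3, the lactate exporter MCT4, had 3.802 and 2.41 CPM with knockdown, 3.76 and 4.18 CPM in TAC and 3.71 and 1.90 CPM in sham, too few reads to place it.

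Ratios within a library do not depend on how libraries are scaled, but 2 libraries against 2 allow an exact two-sided permutation p of no less than 0.333, so they are given as values. Besides the lactate dehydrogenases, the ratio of Pdk1 to Pdk2 was 0.257 and 0.300 with knockdown, against 0.276 and 0.318 in TAC and 0.199 and 0.230 in sham, again with each loaded library above sham. The ratios of Pgam1 to Pgam2, of Pfkl to Pfkm and of Pdk3 to Pdk2 were likewise above sham in each loaded library. Pygm to Gys1 stood at 9.50 and 7.77 with knockdown, against 8.11 and 7.47 in TAC and 9.82 and 10.5 in sham, and like Mpc1 to Mpc2 was below sham in each loaded library. Hk2 to Hk1, Eno1 to Eno3 and Pfkfb3 to Pfkfb2 overlapped in each comparison, and Pfkp to Pfkm overlapped between TAC and sham.

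**Figure D5:**
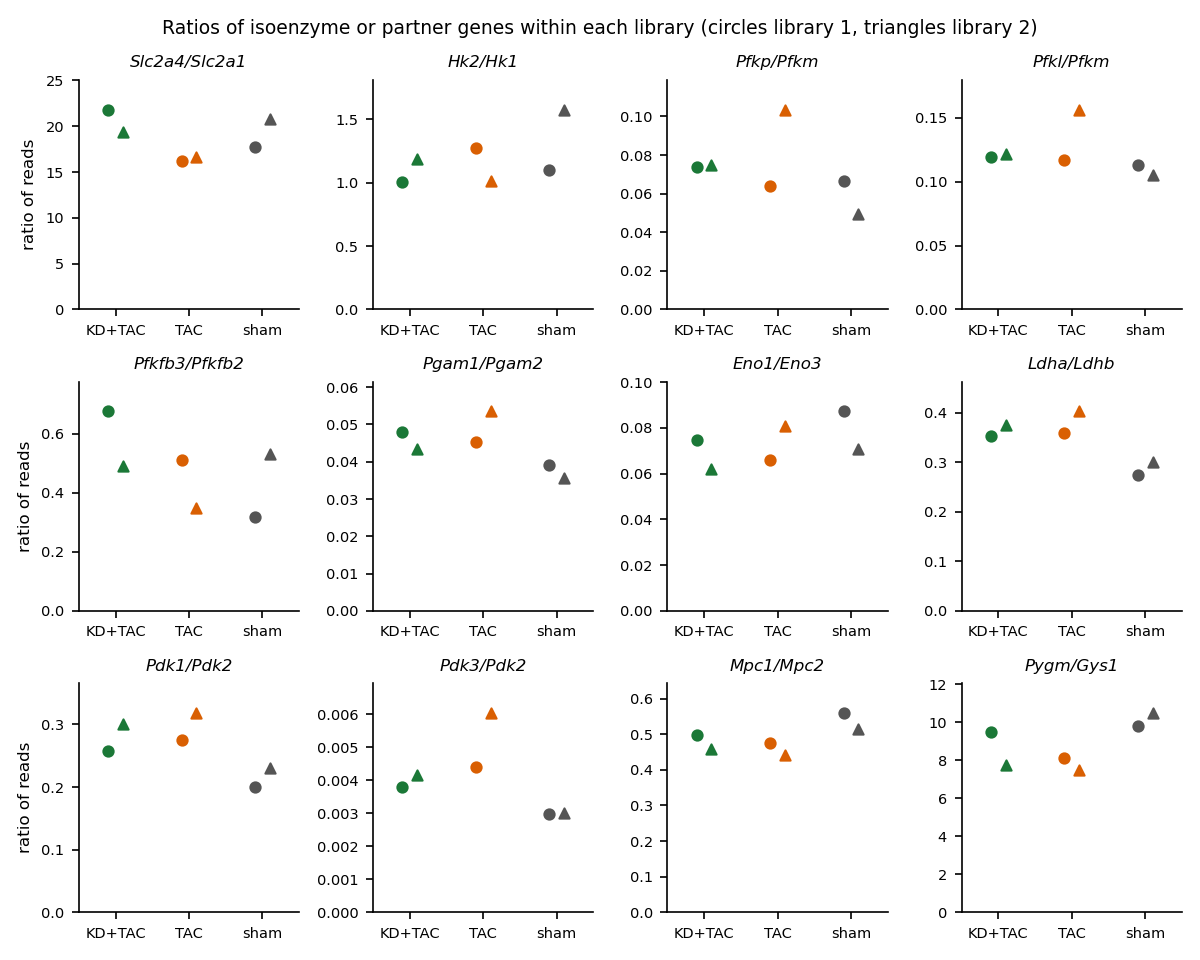
Ratio of the reads of 2 genes (y axis, from 0) in each library, for 12 pairs of isoenzymes or partners; KD+TAC is TAC with Snai1 knockdown. Ldha/Ldhb and Pdk1/Pdk2 are above both sham libraries in all 4 loaded libraries, and Pygm/Gys1 is below them.

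The mitochondrial pyruvate carrier is a pair of Mpc1 and Mpc2. Mpc1 had 112 and 98.8 CPM with knockdown, 98.0 and 94.9 CPM in TAC and 123 and 103 CPM in sham, and its knockdown minus TAC value was 0.12 ± 0.12 (limma adjusted p = 0.999). Mpc2 had 224 and 216 CPM with knockdown, 206 and 215 CPM in TAC and 219 and 201 CPM in sham. Both were slightly higher in the knockdown libraries than in TAC. Of pyruvate dehydrogenase, Pdhb had 781 and 815 CPM with knockdown, 709 and 676 CPM in TAC and 708 and 698 CPM in sham. It was higher with knockdown than in the 4 other libraries, at 0.20 ± 0.10 against TAC (limma adjusted p = 0.999), and at 0.21 with its copy Gm6123 added. Pdha1 had 935 and 1076 CPM with knockdown, 1080 and 946 CPM in TAC and 852 and 983 CPM in sham. Dlat, the acetyl-transferring component, had 473 and 554 CPM with knockdown, 508 and 472 CPM in TAC and 478 and 469 CPM in sham. Neither Pdha1 nor Dlat separated any groups.

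Pyruvate dehydrogenase kinases inactivate the complex. Pdk2, the most abundant of them here, had 887 and 862 CPM with knockdown, 935 and 765 CPM in TAC and 1058 and 1037 CPM in sham. All 4 loaded libraries were below both sham libraries. Its log2 fold change was -0.31 ± 0.12 between TAC and sham (limma adjusted p = 0.391) and -0.26 ± 0.12 between knockdown and sham (adjusted p = 0.547). Without TAC replicate 2 the first was -0.16. Pdk1, a hypoxia-induced form, had 228 and 259 CPM with knockdown, 258 and 244 CPM in TAC and 211 and 239 CPM in sham. Pdk3 had 3.34 and 3.56 CPM with knockdown, 4.09 and 4.59 CPM in TAC and 3.10 and 3.10 CPM in sham, with few reads. Pdk4, the kinase induced by fatty acids and fasting and no member here, had 75.1 and 88.5 CPM with knockdown, 115 and 164 CPM in TAC and 70.7 and 327 CPM in sham, so that the 2 sham libraries enclosed all others. Pdp1, the phosphatase that reactivates the complex, had 59.2 and 58.5 CPM with knockdown, 54.9 and 53.2 CPM in TAC and 66.5 and 43.7 CPM in sham.

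Among the glycogen enzymes, Gys1, the muscle glycogen synthase, had 188 and 238 CPM with knockdown, 243 and 227 CPM in TAC and 190.5 and 190.5 CPM in sham. Both TAC libraries were above sham, while the knockdown libraries overlapped TAC. Its log2 fold change was 0.30 ± 0.12 between TAC and sham (limma adjusted p = 0.419). Knockdown minus TAC was -0.15 ± 0.12 (adjusted p = 0.999) and turned to 0.020 without the first knockdown library. Pygm had 1783 and 1849 CPM with knockdown, 1967 and 1696 CPM in TAC and 1871 and 2001 CPM in sham. Ugp2, which makes the glucose donor for glycogen, had 355 and 384 CPM with knockdown, 329.8 and 369 CPM in TAC and 320.3 and 325 CPM in sham. Ugp2 was above sham in each loaded library, at 0.19 ± 0.10 between knockdown and sham (limma adjusted p = 0.636).

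Over 4 lists of related genes, 0 members were called in any comparison. Of other genes of glycolysis and pyruvate, 34 of 35 in the table were tested, with 8 higher and 6 lower without overlap between TAC and sham, near the 23.8% and 16.3% of all genes. The malic enzyme gene Me1 had a log2 fold change of -0.34 ± 0.11 between TAC and sham (limma adjusted p = 0.331). The muscle fructose bisphosphatase gene Fbp2 had 16.5 and 18.9 CPM with knockdown, 19.95 and 16.03 CPM in TAC and 19.9 and 40.5 CPM in sham. Its fold changes of -0.67 ± 0.26 between TAC and sham and -0.68 ± 0.26 between knockdown and sham (limma adjusted p = 0.397 and 0.449) rested on sham library 2, and were -0.15 and -0.17 against sham library 1 alone. The D-lactate dehydrogenase gene Ldhd was at -0.38 ± 0.15 between knockdown and sham (limma adjusted p = 0.503). Between knockdown and TAC the smallest p-values were those of Slc2a9, a urate transporter gene, at 0.72 ± 0.42, and of Pdk4 at -0.75 ± 0.44 (limma adjusted p = 0.999 for both). Slc16a1, the lactate transporter MCT1, had 249.9 and 275 CPM with knockdown, 237 and 306 CPM in TAC and 234 and 216 CPM in sham. Pdhx and Dld, further components of pyruvate dehydrogenase, had log2 fold changes of 0.22 ± 0.11 and 0.075 ± 0.11 between TAC and sham, neither called.

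Of 22 tested glycogen genes in the second list, Phka1 came nearest to the threshold. It encodes the muscle regulatory subunit of phosphorylase kinase, which activates glycogen phosphorylase. Phka1 had 70.6 and 71.1 CPM with knockdown, 84.3 and 83.5 CPM in TAC and 57.2 and 53.8 CPM in sham. The 3 groups did not overlap, with TAC highest and sham lowest. Phka1 had a log2 fold change of 0.60 ± 0.11 between TAC and sham (limma adjusted p = 0.0551), of -0.24 ± 0.11 between knockdown and TAC (adjusted p = 0.999) and of 0.35 ± 0.11 between knockdown and sham (adjusted p = 0.343). Gbe1, the branching enzyme, was at 0.30 ± 0.12 between TAC and sham (limma adjusted p = 0.416). Of the glycogen-targeting phosphatase subunits, Ppp1r3b was at -0.37 ± 0.16 between knockdown and TAC (adjusted p = 0.999) and Ppp1r3a at 0.21 ± 0.11 between knockdown and sham (limma adjusted p = 0.599). Of the 22, 5 were higher and 1 lower without overlap between TAC and sham, against 23.8% and 16.3% of all genes.

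Of 13 tested pentose phosphate and hexosamine genes, Gfpt2, which starts hexosamine synthesis, had 29.2 and 22.9 CPM with knockdown, 23.3 and 25.3 CPM in TAC and 18.3 and 17.6 CPM in sham. It was above sham in each loaded library, at 0.44 ± 0.17 between TAC and sham and 0.53 ± 0.17 between knockdown and sham (limma adjusted p = 0.394 and 0.335). Rpe was at 0.43 ± 0.22 between TAC and sham and Rpia at 0.30 ± 0.21 between knockdown and sham (limma adjusted p = 0.565 and 0.737), both enzymes of pentose interconversion. Gfpt1 was at -0.28 ± 0.14 and G6pdx, the entry enzyme of the pentose pathway, at 0.35 ± 0.23 between knockdown and TAC (limma adjusted p = 0.999 for both).

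Of 39 regulators of glucose use, Irs2, an adaptor of the insulin receptor, had 22.9 and 22.1 CPM with knockdown, 21.3 and 10.9 CPM in TAC and 27.9 and 53.7 CPM in sham. It was lowest in TAC and below sham in each loaded library, with a log2 fold change of -1.34 ± 0.29 between TAC and sham (limma adjusted p = 0.0819) and of 0.56 ± 0.29 between knockdown and TAC (adjusted p = 0.999). Prkab2, a subunit of the energy sensor AMPK, was at -0.46 ± 0.13 between TAC and sham (limma adjusted p = 0.199). Ppara, a nuclear receptor for fatty acids, was at -0.32 ± 0.17 between knockdown and TAC (limma adjusted p = 0.999). Between knockdown and sham, Egln3, an oxygen-sensing hydroxylase induced by hypoxia, was at 0.54 ± 0.18 and Tbc1d1, a regulator of GLUT4 traffic, at 0.48 ± 0.17 (limma adjusted p = 0.381 and 0.393). Hif1a had 91.3 and 89.4 CPM with knockdown, 86.7 and 97.5 CPM in TAC and 99.8 and 75.9 CPM in sham. Txnip, an inhibitor of glucose uptake, had 313 and 329 CPM with knockdown, 525 and 317 CPM in TAC and 347 and 515 CPM in sham, and Hif1a and Txnip each overlapped between TAC and sham.

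The members summed to 18551 and 19308 CPM with knockdown, 19201 and 18400 CPM in TAC and 17748 and 18776 CPM in sham, and these ranges overlapped. Within a group, the log2 difference between the 2 libraries had an SD over the 35 tested members of 0.25 with knockdown, 0.195 in TAC and 0.32 in sham, against 0.19, 0.21 and 0.22 over the 5246 genes whose mean was 500 reads or more. Members of few reads are included in the first set of values.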

How the data were processed

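RNA-seq was done on 6 heart samples in 3 groups. Per the labels' protocols, RNA was extracted with TRIzol and the library kit was SMARTER mRNA-seq. The build mm10 and limma (no version) come from the submitters' processing notes. The aligner, counter, annotation and strand setting were not given in the sources used here. The deposited values are log2 CPM, from their form with 0.5 added to the reads. Each pair of columns was resolved as 60% and 40% mixtures of 2 libraries; no source records such mixing. A resolved library takes the replicate number of the column where it has the larger share. A count of 3 reads makes between 0.164 and 0.202 CPM. All libraries were fitted together with limma 3.58.1 in R 4.3.3 (intensity trend, 1 mean per group) on log2 CPM with 0.5 reads added, which understates folds of genes with few reads. Genes needed the CPM of 10 reads in the median library in at least 2 libraries, and 15 reads in all, which left 14447 of 19320. P-values were adjusted by Benjamini-Hochberg over these. No count model was run on the resolved counts.

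All 36 members are named. Fold change, standard error and adjusted p are given for the 8 members of smallest unadjusted p per comparison, and for the 2 of smallest p in each other list. Pdk4, Pdhx, Dld, Txnip, Slc16a1, Hif1a and Snai1 were named whatever their values. Near copies were rows sharing at least 10% of their 50-base words with a member in the GENCODE M21 transcripts. The members and lists were chosen with earlier results of these data known. The procedure was run on simulated counts that were mixed and resolved with the same shares, with planted changes of 2-fold or more. This could not test whether the deposited columns are such mixtures, and smaller planted changes were not simulated. Alternatives were other scalings, filters, read additions, limma-voom, a replicate block, the columns as deposited and leaving out each library.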

Additional observations from a re-analysis of the deposited data

How the results depend on the processing

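No member was called in any comparison under any alternative on the resolved libraries, near copies summed included (an alternative chosen after seeing the data). In the columns as deposited, where the 2 columns of a group are mixtures of the same libraries, 29 members were called between TAC and sham, 20 between knockdown and TAC and 31 between knockdown and sham, and 10250, 8529 and 10100 genes in all. Genes called between TAC and sham (23) numbered 9 with no filter, 42 with 2 reads added and between 4 (without TAC replicate 2) and 45 (without sham replicate 1) with 1 library left out, 43 without TAC replicate 1 and 15 without sham replicate 2. Between knockdown and sham (35) they numbered 14 with no filter, 18 with limma-voom and between 5 (without sham replicate 2) and 50 with 1 library left out; they were 9 and 19 without knockdown replicates 1 and 2, and 22 and 21 without TAC replicates 1 and 2. The members' median between TAC and sham was 0.076 with median-ratio scaling and 0.085 with quantile normalization. Between knockdown and sham it was 0.060 and 0.079, and between 0.049 and 0.145 with 1 library left out. Between knockdown and TAC it ran between -0.041 and 0.018 with 1 library left out. Of 336 values of 24 named member results under 14 alternatives, 310 kept direction and side, 24 passed the threshold (all in the deposited columns) and 2 turned sign, Gys1 (between -0.32 and 0.020) and Pfkfb3 (between -0.059 and 0.66) between knockdown and TAC. Differences between libraries 2 and 1 had correlations over 5246 genes of -0.135 for knockdown and TAC, 0.134 for knockdown and sham and -0.222 for TAC and sham. With a single difference per group, these values cannot settle whether samples of the same number were paired. With the replicate number as a block, 40 genes were called between TAC and sham, 1 between knockdown and TAC and 35 between knockdown and sham, and 0 members. With 2 libraries per group, and few reads for Slc16a3, Pdk3 and Aldoc, depth and number limit what could be detected.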

Other observations

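The 2 sham libraries differed for several genes of fuel choice that are no members of the 36. Pdk4 had 70.7 and 327 CPM, Fbp2 19.9 and 40.5 CPM, Irs2 27.9 and 53.7 CPM and Txnip 347 and 515 CPM in sham libraries 1 and 2, all higher in library 2. These genes were chosen after their values were seen. Red blood cell markers, 5 in the table, summed to 755 and 1126 CPM with knockdown, 865 and 792 CPM in TAC, and 1758 and 904 CPM in sham, highest in sham library 1. Why the sham libraries differ was not tested.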
